A study of Glycine max with 20 samples.

Results

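The extended hilum of the soybean isoline UC413 was compared between EH25 and EH10, stages of seed coat development separated by the fresh weight of the seed. The extended hilum is the hilum, where the seed had been joined to the pod, together with the seed coat around it. UC413 is a Clark isoline with the genotype ii R t mi G, a minute hilum and cracks in its seed coat. EH25 tissue came from UC413 seeds of 25 to 50 mg and EH10 tissue from UC413 seeds of 10 to 25 mg, with 2 libraries for each stage, so 4 of the 20 RNA-Seq libraries of the series carry the comparison. Libraries of the same stages from UC7 (Clark 63, genotype ii R T Mi g), the recurrent parent, which differs from it at the T, Mi and G loci and has a hilum of standard size, were used for the spread between replicates and for the stage difference in that isoline. All plants were grown in a greenhouse. All 8 of these libraries were made with a stranded kit. The replicates are described as independent, but the sources used here do not say whether they came from separate plants, so a p-value measures the spread between these samples, which may be technical.

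A seed coat is maternal tissue. Its cells first divide while the seed is small and then enlarge and specialize, some of them into thick-walled layers and vascular strands. Sucrose and amino acids enter the seed coat through the vascular bundle of the hilum, and exporters in the seed coat release them to the embryo. Secondary walls are laid down inside the primary wall by dedicated cellulose synthases, xylan enzymes and, where lignin forms, by laccases and peroxidases that couple monolignols. Later in development the seed coat also builds water and pathogen barriers from lipids, phenolics and small secreted proteins.

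Levels are given as RPKM, the alignments to a gene model per kilobase of its length and scaled to the depth of the library, so they can be compared between genes. The EH25 libraries held 95776931 and 115034141 alignments, and the EH10 libraries 111711175 and 98572130. With 3 alignments taken as the smallest count told from 0, a model of 1 kb could be detected at 0.0261 to 0.0313 RPKM in these libraries, a limit that covers counting error only. Ribosomal DNA models took 0.937% and 0.755% of the alignments at EH25, against 1.10% and 0.411% at EH10. Markers of the seed coat were high at both stages. Genes whose best Arabidopsis hits are seed coat or ovule identity genes such as STK, SHP1 and BAN summed to 1662 and 1637 RPKM at EH25, against 1669 and 1757 RPKM at EH10, with 3 of the 32 genes at 0 in all 4 libraries. Markers of the embryo and cotyledons summed to 44.2 and 22.7 RPKM at EH25, against 16.3 and 13.4 RPKM at EH10. Of those 39 genes, 23 stayed under 1 RPKM in all 4 libraries and the LEC1-type gene was at 0 in all of them. Of the endosperm markers, the 33 AGL62-type genes together reached at most 0.290 RPKM in any library, and nearly all of the summed level of the list came from 4 RGP3-type genes.

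The libraries did not separate cleanly by stage. On log2 RPKM, scaled between libraries by the median of ratios, EH25 replicate 2 had a Pearson correlation across models of 0.982 with EH10 replicate 1 and 0.970 with EH25 replicate 1. The EH10 replicates had a correlation of 0.981 with each other, and EH25 replicate 1 one of 0.946 with EH10 replicate 2. Models are not independent replicates, so these values only describe the libraries. The median gene differed by 0.21 log2 units between the EH25 replicates and by 0.15 between the EH10 replicates. Between an EH25 and an EH10 library it differed by 0.19 and 0.25 for EH25 replicate 1, set against EH10 replicates 1 and 2, and by 0.13 and 0.17 for EH25 replicate 2. The distances between stages thus overlapped with those between replicates, and EH25 replicate 1 lay further from the EH10 libraries than EH25 replicate 2.

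Every model with at least 1 RPKM in at least 2 of the 4 libraries was tested with limma, on log2 of scaled RPKM plus 0.25, with the UC7 libraries in the same fit. Differences are EH25 minus EH10, on this log2 scale, and understate the change of low genes. At an adjusted p under 0.05, 0 of 55100 models were called (0%), and the lowest adjusted p was 0.0748. At an unadjusted p under 0.05 there were 1870 models higher (3.39%) and 818 lower (1.48%) at EH25. With limma-voom on the alignments recovered from RPKM the counts were likewise 0 called, with 1931 models higher and 957 lower at an unadjusted p under 0.05. These shares depended on single libraries. Without EH10 replicate 2 they were 1.28% higher and 0.306% lower, and without EH25 replicate 1 they were 2.09% and 0.935%. The lower share was 2.5% without EH25 replicate 2, 2.77% without UC7 EH25 replicate 1 and 2.73% without UC7 EH25 replicate 2. The balance between directions moved with the scaling, with 1204 models higher and 845 lower on RPKM as deposited and 1480 higher and 1261 lower when the sums of the libraries outside ribosomal DNA were made equal. Calls came only with RPKM as deposited, where 106 models were higher and 9 lower, and after quantile normalization, where 101 were higher and 3 lower. At an adjusted p under 0.10, a threshold added after the data were seen, 77 models were higher (0.14%) and 2 lower (0.00363%). What follows is therefore a description of which genes and functions lay above or below, and not a list of called genes.

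Counted with 1 model per gene, 1211 of 29856 genes were higher (4.06%) and 486 lower (1.63%) at an unadjusted p under 0.05. Together these are 1697 genes (5.68%). At an adjusted p under 0.10 there were 47 genes higher (0.157%) and 2 lower (0.0067%). Some of the 47 are neighbours with nearly the same values, among them a run of F-box genes. Glyma.09G141100.2 had 4.58 and 4.61 RPKM at EH25, against 1.92 and 1.95 RPKM at EH10. Glyma.09G141200.2 had 4.54 and 4.64 RPKM at EH25, against 1.91 and 2.02 RPKM at EH10. Such copies can share reads, so the count is not one of independent genes. Both EH25 libraries lay above both EH10 libraries in 5837 genes (19.6%) and below both in 5262 genes (17.6%). A difference of at least 2-fold without overlap was seen in 337 genes higher at EH25 (1.13%) and in 83 genes lower (0.278%). Of the 1211 genes that were higher, EH25 replicate 1 was above EH25 replicate 2 in 817. Of the 486 genes that were lower, EH25 replicate 1 was below EH25 replicate 2 in 316. In bulk tissue, fewer cells of a type and less RNA per cell cannot be told apart, which holds for every gene and list below.

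**Figure D1:**
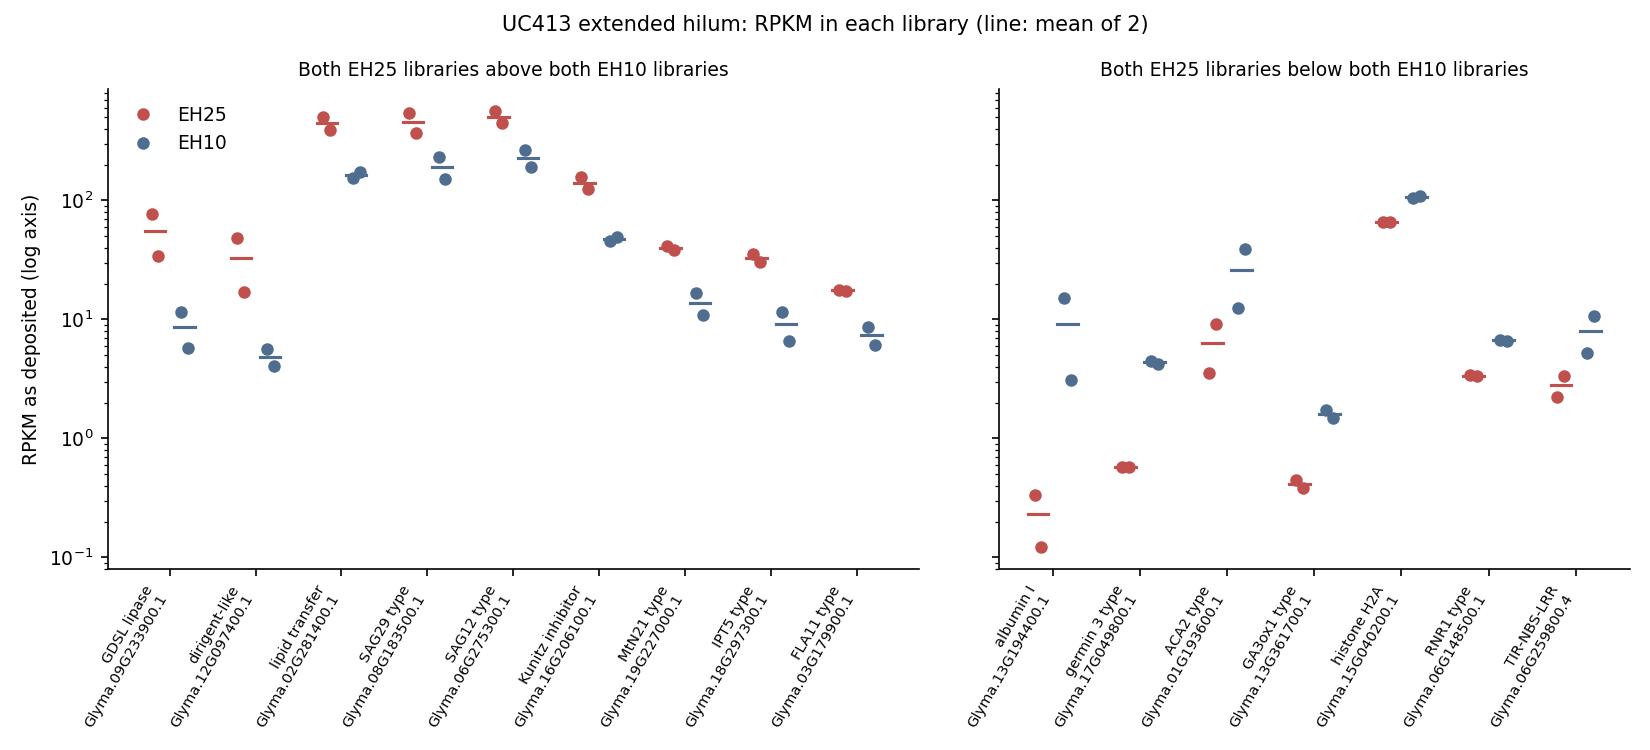
RPKM as deposited on a log axis for 9 genes higher and 7 genes lower at EH25, with 1 point for each UC413 library (EH25 red, left; EH10 blue, right) and a line at the mean of 2. In each gene shown the EH25 and EH10 libraries do not overlap. The spread of the EH25 pair is almost none in the germin 3-type gene (0.577 and 0.579). It is over 2-fold in several others, among them the GDSL lipase gene (77.5 and 34.1).

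Gene lists were formed from protein domains, best Arabidopsis hits and annotation words, and are described by how many of their tested genes had no overlap between the stages and by their median difference. Over all genes tested the median difference was 0.0028, with 19.6% of genes above and 17.6% below. A gene under 1 RPKM at EH10 could pass the filter through EH25 alone, and the reverse. Counts and medians of lists with low genes are therefore partly shaped by the filter. Lists of cell division lay lower at EH25, and lists of secondary walls, sugar and amino acid export, papain-type proteases and photosynthesis lay higher. Libraries were left out in turn for some of the lists only. Where a median printed for such a list moved by over 1.5 times, the median without that library, or in each EH25 replicate, is given. Medians not printed moved in some lists as well, as in NAC factors (-0.09, and 0.05 without EH10 replicate 2). A list without such values is therefore not shown to be stable. The plot of list shares shows lists that stand far from those 2 background shares and others, such as the expansins, that are near them.

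**Figure D2:**
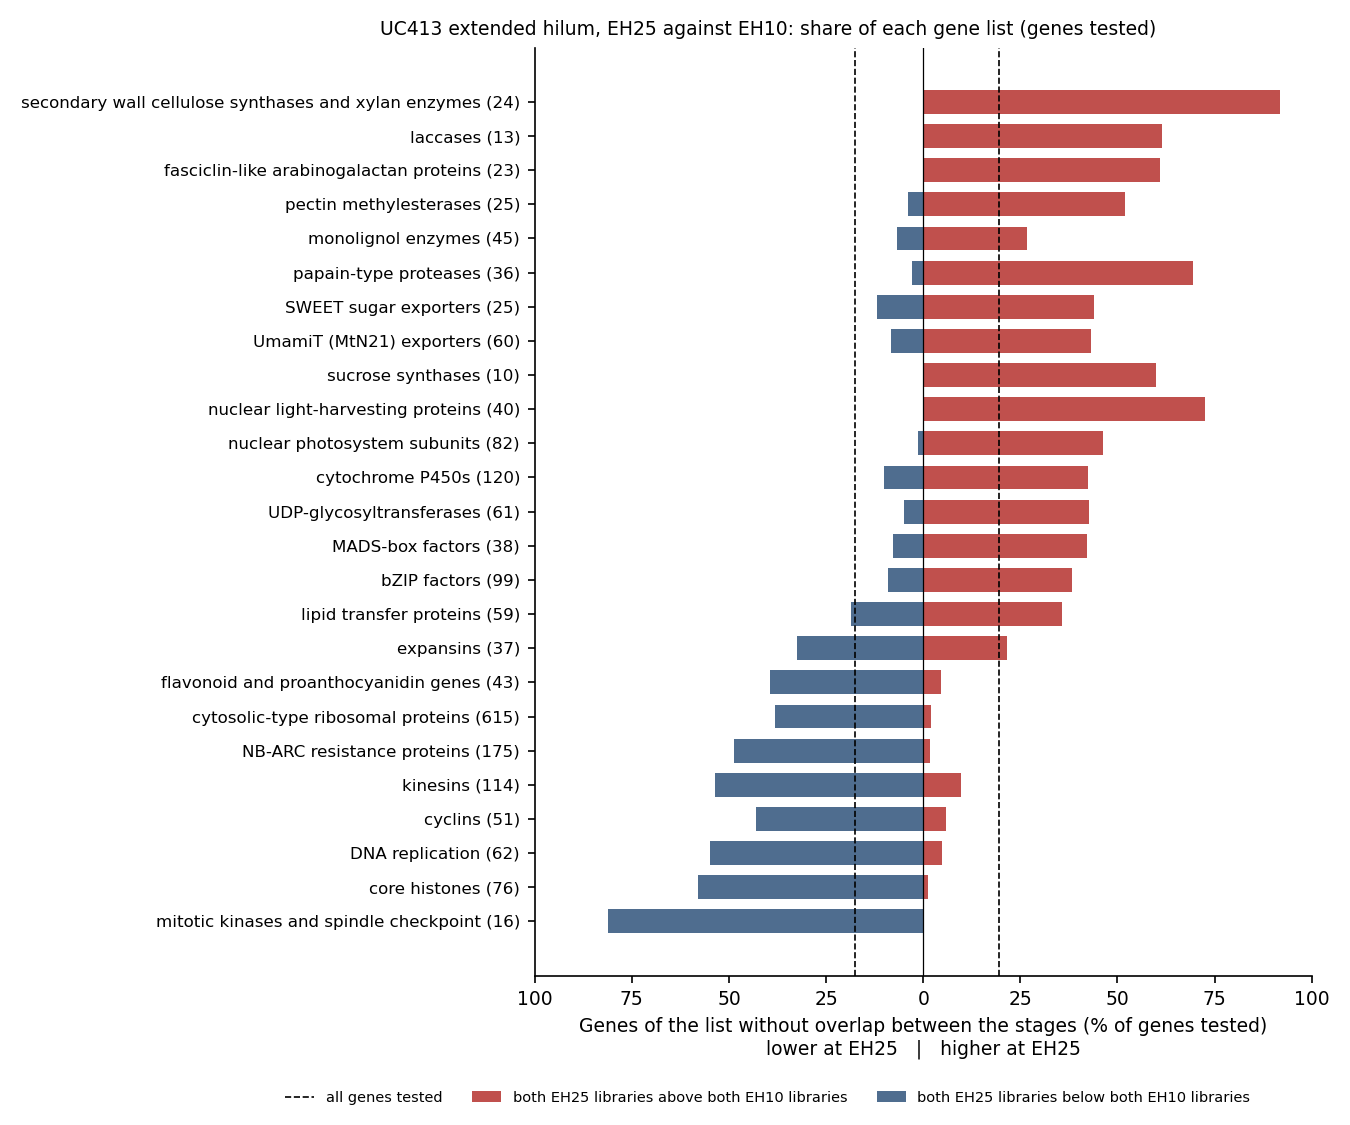
Share of the tested genes of each list (number in brackets) with both EH25 libraries above both EH10 libraries (red, right) or below both (blue, left), in % of genes tested. Dashed lines mark all genes tested, 19.6% above and 17.6% below; secondary wall genes reach 91.7% above and mitotic kinases and spindle checkpoint genes 81.2% below.

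Genes of DNA synthesis and mitosis were lower at EH25. Of 76 core histone genes, 44 had both EH25 libraries below both EH10 libraries and 1 had both above, and the median difference was -0.34. The median was -0.26 in EH25 replicate 1 and -0.48 in EH25 replicate 2, each set against the EH10 mean. At an unadjusted p under 0.05, 22 histone genes were lower (28.9%, against 1.63% of all genes), a count that was 12 without EH25 replicate 1, 5 without EH25 replicate 2, 5 without EH10 replicate 1 and 7 without EH10 replicate 2. The histone H2A gene Glyma.15G040200.1 had 65.3 and 65.7 RPKM at EH25, against 104 and 108 RPKM at EH10. Both EH25 libraries were low, close to each other and well apart from the EH10 libraries, and the difference was -0.64 (SE 0.25, limma adjusted p = 0.94). Its neighbours Glyma.15G040300.1 and Glyma.15G040400.1 had like values, and since a read could align to several near-identical copies the 3 genes cannot be told apart with certainty. Among H3-type genes, Glyma.15G222200.1 had 4.98 and 5.92 RPKM at EH25, against 11.8 and 12.8 RPKM at EH10. That is a difference of -1.08 (SE 0.31), with no overlap. The exception was Glyma.13G285900.1, an HTA10-type H2A gene, with 48.1 and 33.0 RPKM at EH25, against 20.0 and 13.6 RPKM at EH10. It lay 1.31 higher (SE 0.31) and is the 1 histone gene with both EH25 libraries above.

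The DNA replication list gave the same picture, with 34 of 62 genes below, 3 above and a median of -0.30, which was -0.18 without EH25 replicate 2 and -0.19 without EH10 replicate 1. Glyma.06G148500.1 encodes the large subunit of ribonucleotide reductase, which supplies deoxyribonucleotides. It had 3.41 and 3.31 RPKM at EH25, against 6.73 and 6.63 RPKM at EH10, a difference of -0.88 (SE 0.25) with replicates that nearly coincide. Of 51 cyclin genes, 22 were below and 3 above. Their median of -0.29 was -0.04 without EH10 replicate 1 and -0.19 without EH10 replicate 2. The CYCD3;2-type gene Glyma.17G167700.1, a D-type cyclin of the entry into division, had 2.27 and 1.32 RPKM at EH25, against 3.59 and 3.43 RPKM at EH10. The CYCA3;1-type gene Glyma.04G043600.2 had 0.779 and 0.727 RPKM at EH25, against 1.73 and 2.03 RPKM at EH10. Here too the stages do not overlap. In contrast, the CYCD1;1-type gene Glyma.10G256200.1 had 1.97 and 1.13 RPKM at EH25, against 0.855 and 0.696 RPKM at EH10, so not every cyclin lay lower. Of 16 mitotic kinase and spindle checkpoint genes, 13 were below and 0 above, with a median of -0.41 that was -0.18 without EH10 replicate 1. Kinesins, the motors of spindle and phragmoplast microtubules, were below in 61 of 114 genes and above in 11, with a median of -0.22 that was -0.13 without EH10 replicate 1.

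Secondary wall genes lay higher at EH25. Of the 24 tested genes for secondary wall cellulose synthases and xylan enzymes, 22 had both EH25 libraries above both EH10 libraries and 0 had both below, with a median difference of 0.67. The median was 0.40 in EH25 replicate 1 and 0.87 in EH25 replicate 2, so in this list replicate 2 was further from EH10, and without it the median was 0.39. At an unadjusted p under 0.05, 16 of them were higher (66.7%, against 4.06% of all genes), and 5 were without EH25 replicate 2, 10 without EH10 replicate 1 and 5 without EH10 replicate 2. The CESA4-type gene Glyma.09G051100.1, a cellulose synthase of secondary walls in Arabidopsis, had 44.8 and 75.3 RPKM at EH25, against 39.0 and 35.6 RPKM at EH10. EH25 replicate 2 was the high library and EH25 replicate 1 lay only slightly above EH10, and the difference was 0.69 (SE 0.26, adjusted p = 0.90). Its paralog Glyma.15G157100.1 had 37.1 and 58.2 RPKM at EH25, against 31.1 and 26.4 RPKM at EH10. The IRX9-type gene Glyma.19G179100.1, for an enzyme of the xylan backbone, had 6.29 and 8.68 RPKM at EH25, against 4.55 and 3.82 RPKM at EH10. Its difference was 0.83 (SE 0.22). The gene with the largest difference of the list, Glyma.05G085700.1, carries the DUF579 domain of the IRX15 proteins that act on xylan. It had 12.5 and 12.3 RPKM at EH25, against 6.17 and 5.41 RPKM at EH10, and lay 1.11 higher (SE 0.28).

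Other genes of wall thickening lay on the same side. The chitinase-like gene Glyma.09G038500.1, whose Arabidopsis hit CTL2 is known from cells with secondary walls, had 80.8 and 95.3 RPKM at EH25, against 54.8 and 54.5 RPKM at EH10. Of 23 genes for fasciclin-like arabinogalactan proteins, glycoproteins of the cell surface, 14 were above and 0 below, with a median of 0.44 that was 0.22 without EH10 replicate 2. The FLA11-type gene Glyma.03G179900.1, of a group that takes part in stem secondary walls in Arabidopsis, had 17.7 and 17.5 RPKM at EH25, against 8.61 and 6.03 RPKM at EH10. Its difference was 1.30 (SE 0.28, adjusted p = 0.31), one of the better separated of the wall genes. Of 59 laccase genes 13 were tested. Of these 8 were above and 0 below, with a median of 0.67 that was 0.40 without EH10 replicate 2. The LAC4-type gene Glyma.01G112600.1, which acts in lignin formation in Arabidopsis stems, had 1.15 and 1.64 RPKM at EH25, against 0.434 and 0.866 RPKM at EH10. The TT10-type laccase Glyma.10G219100.1, whose Arabidopsis counterpart oxidizes flavonoids in the seed coat, had 1.87 and 2.24 RPKM at EH25, against 0.912 and 0.535 RPKM at EH10. Both named laccases were under 1 RPKM in both EH10 libraries. They passed the filter through EH25 alone, so they give no separate support to a rise. Enzymes that make monolignols were above in 12 of 45 genes and below in 3, with a median of 0.24 that was 0.57 without EH25 replicate 1 and -0.02 without EH25 replicate 2. The methyltransferase gene Glyma.11G054500.1 (CCoAOMT1 type) was above in both, with 6.64 and 8.87 RPKM at EH25, against 4.20 and 3.70 RPKM at EH10.

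Markers of tracheary elements, the water-conducting cells, lay higher with these lists, and their part in the secondary wall result was not tested. The lists share genes, since 2 of the 22 tested markers, both of the CESA4 type, are also secondary wall genes. The 35 genes of the marker list summed to 356 and 410 RPKM at EH25, against 290 and 281 RPKM at EH10, with 0 of them at 0 in all 4 libraries. Of the 5 CESA4-type genes the sum was 82.3 and 133.8 RPKM at EH25, against 70.4 and 62.4 RPKM at EH10. Among the 20 tested markers outside the secondary wall list, both EH25 libraries lay above both EH10 libraries in 11 and below both in 3 (median 0.33). Over all 22 tested markers, 8 were higher at an unadjusted p under 0.05 (36.4%, against 4.06% of all genes). By the same threshold 3 were lower (13.6%, against 1.63%). The 5 XCP2-type genes, for a protease of xylem cells in Arabidopsis, summed to 17.3 and 28.95 RPKM at EH25, against 10.3 and 14.1 RPKM at EH10. The 2 XCP1-type genes lay lower, at 2.65 and 1.92 RPKM at EH25, against 2.74 and 2.72 RPKM at EH10. The 4 RNS3-type genes summed to 1.39 and 1.65 RPKM at EH25, against 0.516 and 0.518 RPKM at EH10. The 4 KNAT7-type genes, for a regulator of secondary walls, summed to 185 and 178 RPKM at EH25, against 132.5 and 133.8 RPKM at EH10. The 2 VND7-type genes, for the factor that switches on vessel formation in Arabidopsis, were low and did not separate, with 1.13 and 1.98 RPKM at EH25, against 1.58 and 2.31 RPKM at EH10. The 13 AIR3-type subtilases, which entered the list by their Arabidopsis hit and are not specific to xylem, summed to 65.9 and 64.2 RPKM at EH25, against 72.1 and 65.1 RPKM at EH10. A SND2-type NAC factor, Glyma.13G234700.3, related to regulators of secondary walls, lay lower instead, with 4.84 and 7.01 RPKM at EH25, against 9.40 and 8.93 RPKM at EH10. A separate list of NAC and MYB regulators of secondary walls held 33 genes, of which only 2 could be tested. Of these 0 were above and 0 below, with medians of -0.19 in EH25 replicate 1 and 0.28 in EH25 replicate 2.

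Genes that loosen or remodel primary walls did not share a direction. Of 37 expansin genes, 8 were above and 12 below, with a median of -0.07 that was 0.10 without EH10 replicate 1, -0.12 without EH10 replicate 2 and -0.20 without EH25 replicate 1. The largest differences of the list were nevertheless upward. The EXPB2-type gene Glyma.10G122600.1 had 4.93 and 3.22 RPKM at EH25, against 0.615 and 0.706 RPKM at EH10, a difference of 2.19 (SE 0.41, adjusted p = 0.19). The EXPA2-type gene Glyma.03G035800.1 had 70.6 and 20.9 RPKM at EH25, against 8.87 and 8.22 RPKM at EH10. Its EH25 libraries were far apart, and both were above EH10. Other expansins were lower, among them the EXPA15-type gene Glyma.07G229000.1 with 10.9 and 12.8 RPKM at EH25, against 19.5 and 17.4 RPKM at EH10. The EXPA11-type gene Glyma.04G021600.2 had 0.374 and 0.152 RPKM at EH25, against 1.29 and 1.22 RPKM at EH10. Pectin methylesterases, which remove methyl groups from pectin, lay above in 13 of 25 genes and below in 1 (median 0.22). The most abundant of those named, Glyma.17G044500.1, had 133.6 and 136 RPKM at EH25, against 93.9 and 70.6 RPKM at EH10. A gene of the inhibitor family of these enzymes, Glyma.03G214600.1, stood further apart, with 22.8 and 14.98 RPKM at EH25, against 5.01 and 4.48 RPKM at EH10. Its difference was 1.94 (SE 0.28, adjusted p = 0.079). The proline-rich protein gene Glyma.04G005400.1, for a structural wall protein of the PRP2 type, had 60.04 and 64.2 RPKM at EH25, against 37.0 and 27.7 RPKM at EH10.

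Genes for secreted and surface proteins were among those with the largest differences in RPKM. The lipid transfer protein gene Glyma.02G281400.1 averaged 448 ± 78.4 RPKM at EH25 and 164 ± 13.5 RPKM at EH10 (SD, n = 2 each). The lower EH25 library had 393 RPKM and the lower EH10 library 154 RPKM. Both EH25 libraries were over 2-fold above both EH10 libraries, and the difference was 1.49 (SE 0.27, adjusted p = 0.18). Lipid transfer proteins are small secreted carriers of lipids, many of them in surface layers. A second member, Glyma.14G032800.1, had 145 and 70.1 RPKM at EH25, against 28.0 and 30.2 RPKM at EH10. Glyma.18G191600.1 went the other way, with 6.997 and 4.61 RPKM at EH25, against 11.6 and 12.7 RPKM at EH10. Over the 59 genes of that list 21 were above and 11 below. The median of 0.04 was 0.0006 without EH25 replicate 1 and 0.15 without EH10 replicate 1, and it turned to -0.004 with RPKM as deposited, -0.02 with an equal sum and -0.05 after quantile normalization.

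The GDSL lipase gene Glyma.09G233900.1 had 77.5 and 34.1 RPKM at EH25, against 11.5 and 5.70 RPKM at EH10. EH25 replicate 1 was more than 2-fold above EH25 replicate 2, and both lay well above EH10, with a difference of 2.67 (SE 0.46, adjusted p = 0.16). GDSL lipases are a large family, some of whose members build or degrade cutin and suberin. The dirigent-like gene Glyma.12G097400.1, of a family that steers the coupling of phenolic radicals, had 48.1 and 16.99 RPKM at EH25, against 5.63 and 4.07 RPKM at EH10. The Stig1-family gene Glyma.14G021900.1, for a small cysteine-rich secreted protein, had 171.3 and 63.0 RPKM at EH25, against 27.4 and 18.6 RPKM at EH10. In all 3 genes EH25 replicate 1 was the high library. Of genes for cutin, suberin and wax, 10 of 43 were above and 8 below, near the background. Among them the CYP86B1-type gene Glyma.09G282700.1, for a fatty acid hydroxylase of suberin in Arabidopsis, had 32.0 and 17.6 RPKM at EH25, against 13.5 and 7.03 RPKM at EH10. The CYP86A1-type gene Glyma.14G192500.1 had 9.16 and 7.47 RPKM at EH25, against 4.98 and 2.39 RPKM at EH10. The cytochrome P450 list as a whole lay above in 51 of 120 genes and below in 12, with a median of 0.24 that was 0.12 without EH10 replicate 2. UDP-glycosyltransferases, which attach sugars to small molecules, lay above in 26 of 61 and below in 3. The UGT72B1-type gene Glyma.19G102800.1 had 4.999 and 4.54 RPKM at EH25, against 1.44 and 1.55 RPKM at EH10, a difference of 1.53 (SE 0.18, adjusted p = 0.075). The class III peroxidase gene Glyma.19G066200.1 had 34.8 and 23.6 RPKM at EH25, against 10.4 and 8.25 RPKM at EH10, and an adjusted p of 0.075. Genes of flavonoid and proanthocyanidin synthesis were below in 17 of 43 and above in 2, with a median of -0.19 that was -0.30 without EH25 replicate 1, -0.02 without EH25 replicate 2 and -0.12 without EH10 replicate 1.

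Exporters that can pass nutrients out of the seed coat lay higher. Of 25 SWEET genes, for sugar exporters, 11 were above and 3 below, with a median of 0.22 that was 0.35 without EH25 replicate 2. The most abundant named, Glyma.08G183500.1, resembles SAG29 (SWEET15), which releases sucrose from the Arabidopsis seed coat. It had 546 and 369 RPKM at EH25, against 232 and 151 RPKM at EH10. All 4 libraries were high, with EH25 replicate 1 the highest, and the difference was 1.31 (SE 0.40, adjusted p = 0.72). Its paralog Glyma.15G049200.1 had 225 and 160 RPKM at EH25, against 97.3 and 51.6 RPKM at EH10. The SWEET5-type gene Glyma.19G009900.2 was lower, with 3.73 and 5.29 RPKM at EH25, against 12.95 and 9.46 RPKM at EH10. Of 10 sucrose synthase genes, for the enzyme that opens sucrose for metabolism, 6 were above and 0 below. Their median of 0.21 was 0.35 without EH25 replicate 1, 0.34 without EH10 replicate 1 and 0.13 without EH10 replicate 2. Glyma.17G138500.1, a vacuolar invertase that splits sucrose, had 16.7 and 18.4 RPKM at EH25, against 13.4 and 11.3 RPKM at EH10.

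Among UmamiT genes, which export amino acids, 26 of 60 were above and 5 below, with a median of 0.14 that was 0.23 without EH25 replicate 1 and 0.21 without EH10 replicate 2. Glyma.19G227000.1 had 41.2 and 37.9 RPKM at EH25, against 16.6 and 10.8 RPKM at EH10. Its difference was 1.59 (SE 0.22, adjusted p = 0.077), and Glyma.19G227900.1, a near-identical copy that can share its reads, gave 1.58. Glyma.03G229700.1 of the same type had 26.4 and 27.5 RPKM at EH25, against 14.1 and 8.63 RPKM at EH10. The AUX1-type auxin importer Glyma.11G228300.1 had 10.0 and 5.26 RPKM at EH25, against 2.30 and 1.18 RPKM at EH10. Aquaporins, the water channels, were above in 8 of 40 genes and below in 10. The PIP2;5-type gene Glyma.20G179700.1 had 27.6 and 37.9 RPKM at EH25, against 43.0 and 64.2 RPKM at EH10.

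Papain-type protease genes lay higher at EH25, while subtilases did not share a direction. Of 36 papain-type cysteine protease genes, 25 were above and 1 below, with a median of 0.36 that was alike in EH25 replicates 1 and 2 (0.38 and 0.30). The SAG12-type gene Glyma.06G275300.1, whose Arabidopsis namesake is a marker of leaf senescence, had 566 and 445 RPKM at EH25, against 266 and 192 RPKM at EH10. It is 1 of several similar copies on that chromosome, so its own share of the reads is uncertain. The difference was 1.20 (SE 0.31), and Glyma.06G272800.1 of the same type had 39.7 and 24.4 RPKM at EH25, against 15.4 and 11.6 RPKM at EH10. The vacuolar aspartic protease gene Glyma.15G110200.2 (APA1 type) had 9.14 and 7.80 RPKM at EH25, against 3.25 and 2.53 RPKM at EH10. Its difference of 1.51 had a small error (SE 0.18, adjusted p = 0.075), and the paralog Glyma.09G005600.1 gave 1.42. Vacuolar processing enzymes and metacaspases, proteases known from seed protein maturation and cell death, were above in 8 of 17 genes and below in 0. The alpha-VPE-type gene Glyma.16G066600.1 had 9.05 and 7.38 RPKM at EH25, against 3.19 and 2.57 RPKM at EH10. Of 68 subtilase genes, 21 were above and 16 below, the median was 0.05, and 4 were higher and 5 lower at an unadjusted p under 0.05. Among protease inhibitors, 5 of 11 Kunitz and Bowman-Birk genes were above and 0 below, with a median of 0.58 that was 0.18 without EH25 replicate 1. The Kunitz gene Glyma.16G206100.1 had 158 and 124 RPKM at EH25, against 45.7 and 48.8 RPKM at EH10, a difference of 1.61 (SE 0.22, adjusted p = 0.075).

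Tested genes of seed filling and desiccation were low in this tissue, and more of them lay higher than lower at EH25. Of 13 oleosin genes, for the coat proteins of oil bodies, 5 were tested. Of these 3 were above and 0 below, with a median of 1.07 that was 0.58 without EH25 replicate 1. The OLE1-type gene Glyma.10G193900.1 had 6.47 and 2.20 RPKM at EH25, against 1.43 and 1.01 RPKM at EH10. A vicilin-like cupin gene, Glyma.11G065800.1, had 2.20 and 1.38 RPKM at EH25, against 0.514 and 0.673 RPKM at EH10. Embryo and cotyledon markers, which include these oleosins, moved with them. Of 39 markers 7 were tested, with 5 above and 0 below. The summed level, which takes in all 39, was highest in EH25 replicate 1, at 44.2 RPKM. Whether embryo RNA in the samples has a part in these values was not tested. The XERO1-type dehydrin gene Glyma.08G048900.1, of a family that protects cells as they dry, had 2.46 and 2.71 RPKM at EH25, against 0.681 and 0.515 RPKM at EH10. It differed from the oleosins in that EH25 replicate 2 was the higher library, and its difference was 1.72 (SE 0.20, adjusted p = 0.075). Of 62 late embryogenesis abundant protein genes, 23 were above and 7 below. The vicilin-like and XERO1-type genes were under 1 RPKM in both EH10 libraries and passed the filter through EH25 alone. The counts of tested genes are not free of that filter.

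Single genes of cytokinin and gibberellin metabolism separated the stages without overlap. The IPT5-type gene Glyma.18G297300.1 encodes an isopentenyltransferase, the first enzyme of cytokinin synthesis. It had 35.5 and 30.5 RPKM at EH25, against 11.5 and 6.58 RPKM at EH10, a difference of 1.93 (SE 0.32, adjusted p = 0.14). The CKX3-type gene Glyma.09G063500.1, for an enzyme that degrades cytokinin, was higher as well, with 5.18 and 4.70 RPKM at EH25, against 1.78 and 1.33 RPKM at EH10. Over the 11 genes of both families, 4 were above and 1 below, and the median was -0.03.

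In gibberellin metabolism the genes for enzymes that remove the active hormone did not all lie on the same side. The GA3ox1-type gene Glyma.13G361700.1, for the last step to active gibberellin, had 0.444 and 0.385 RPKM at EH25, against 1.74 and 1.47 RPKM at EH10, a difference of -1.37 (SE 0.23, adjusted p = 0.15). The GA2ox2-type gene Glyma.15G252100.1, for an enzyme that inactivates gibberellin, had 2.29 and 2.58 RPKM at EH25, against 1.01 and 0.890 RPKM at EH10, a difference of 1.17 (SE 0.17, adjusted p = 0.085). The GID1B-type receptor gene Glyma.10G022900.1 had 2.02 and 1.78 RPKM at EH25, against 0.687 and 0.548 RPKM at EH10. Glyma.02G151100.1 of that type was above as well, with 1.49 and 1.36 RPKM at EH25, against 0.844 and 0.838 RPKM at EH10. The more abundant Glyma.03G148300.1 overlapped, with 7.22 and 7.07 RPKM at EH25, against 6.57 and 9.31 RPKM at EH10. The tested GID1C-type receptor genes overlapped too. Of the 10 tested genes for gibberellin 2-oxidases, 6 were above, 2 below and 2 overlapped (median 0.78). The most abundant, Glyma.01G105200.1, had 174.1 and 131.3 RPKM at EH25, against 78.7 and 107.1 RPKM at EH10. The 2 below were of the GA2ox4 type. Glyma.17G037300.1 had 3.18 and 2.85 RPKM at EH25, against 7.15 and 4.34 RPKM at EH10, and Glyma.07G236100.1 had 2.28 and 2.38 RPKM at EH25, against 4.83 and 2.78 RPKM at EH10. Glyma.01G105200.1, Glyma.17G037300.1, Glyma.07G236100.1, Glyma.02G151100.1 and Glyma.03G148300.1 were added to the named genes after their values were seen. In Glyma.13G361700.1, Glyma.15G252100.1 and Glyma.10G022900.1 the replicates lay close together and the stages apart, though at low levels. Over the 17 genes of gibberellin oxidases and receptors, 8 were above and 3 below. A gibberellin-regulated peptide gene, Glyma.13G039600.1, had 179.4 and 107 RPKM at EH25, against 47.4 and 49.5 RPKM at EH10, while its family of 26 genes was above in 6 and below in 5. It has a near-identical copy, so its own share of the reads is uncertain.

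Of the 6 tested ACC oxidase genes, for the enzyme that forms ethylene, 0 were above, 2 below and 4 overlapped. The 2 below were at low levels. Glyma.02G268000.1 had 5.41 and 5.34 RPKM at EH25, against 6.53 and 7.31 RPKM at EH10. Glyma.14G049500.1 had 2.03 and 2.36 RPKM at EH25, against 3.04 and 3.23 RPKM at EH10. Their differences were -0.30 (SE 1.58) and -0.42 (SE 1.41), and their adjusted p was 1.00 in limma. These SEs take in the spread of the UC7 replicates, so they do not measure that of the UC413 libraries alone. Both genes were named after their values were seen. The 2 most abundant genes overlapped. Glyma.09G008400.1 had 66.9 and 203 RPKM at EH25, against 179.4 and 147 RPKM at EH10. The EH25 libraries lay on both sides of the EH10 libraries, and the difference was -0.43 (SE 0.43, adjusted p = 1.00). Glyma.15G112700.1 had 26.5 and 96.2 RPKM at EH25, against 66.6 and 65.1 RPKM at EH10, with the same order of libraries. Without EH25 replicate 1 both differences turned positive, at 0.38 and 0.60.

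Transcription factor families did not share a direction, and several stood apart from the background of 19.6% above and 17.6% below. MYB factors were nearer to it, with 22.4% above and 13.3% below. Homeobox factors were above in 30.4% and below in 12%, LBD factors in 33.3% and 0%, and SBP factors in 0% and 30.4%. At an unadjusted p under 0.05, 16% of homeobox factors were higher, against 4.06% of all genes. That share fell without EH25 replicate 1, EH25 replicate 2 or EH10 replicate 2. MADS-box factors were above in 16 of 38 genes and below in 3, with a median of 0.15 that was 0.09 without EH25 replicate 1 and 0.08 without EH10 replicate 2. The bZIP factors were above in 38 of 99 and below in 9, with a median of 0.15 that was 0.02 without EH25 replicate 1 and 0.24 without EH25 replicate 2. NAC factors split, with 21 of 78 above and 24 below, but several single genes stood apart. The VNI2-type gene Glyma.19G097700.1, whose Arabidopsis namesake restrains xylem vessel formation and leaf aging, had 5.79 and 5.08 RPKM at EH25, against 2.42 and 2.35 RPKM at EH10. Its difference was 1.14, with an SE of 0.14 and an adjusted p of 0.075. The NAC100-type gene Glyma.18G261300.7 had 5.73 and 5.02 RPKM at EH25, against 2.08 and 1.69 RPKM at EH10, and its paralog Glyma.09G235700.3 had a like difference (1.42 in both). The GL2-type gene Glyma.08G204700.1, for a homeodomain factor of epidermal cells and seed coat mucilage in Arabidopsis, had 2.88 and 1.90 RPKM at EH25, against 0.715 and 0.604 RPKM at EH10. The ABI5-type gene Glyma.13G317000.1, for a bZIP factor of abscisic acid responses, had 2.62 and 2.00 RPKM at EH25, against 0.889 and 0.882 RPKM at EH10, a difference of 1.16 (SE 0.17, adjusted p = 0.085). The TEM1-type gene Glyma.02G099500.1, whose Arabidopsis namesake represses flowering, was lower, with 1.18 and 1.39 RPKM at EH25, against 2.69 and 6.09 RPKM at EH10. WRKY factors, many of them of defense, were above in 6 of 64 and below in 24, with a median of -0.10.

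Fewer genes were strongly lower at EH25. The germin 3-type gene Glyma.17G049800.1, for a secreted cupin protein of the cell wall, had 0.577 and 0.579 RPKM at EH25, against 4.51 and 4.25 RPKM at EH10. The replicates of each stage nearly coincide, and the difference of -2.36 (SE 0.23) had the smallest p of all genes, with an adjusted p of 0.075. The largest negative differences were in a pair of neighbours with the albumin I domain, of cysteine-rich legume seed peptides. Glyma.13G194400.1 had 0.337 and 0.122 RPKM at EH25, against 15.2 and 3.07 RPKM at EH10. Glyma.13G194300.1 had 0.0985 and 0.123 RPKM at EH25, against 9.73 and 2.03 RPKM at EH10. Both are high in the same EH10 library, replicate 1, and near 0 in both EH25 libraries. The KLU-type cytochrome P450 gene Glyma.19G240800.1, which in Arabidopsis acts in the mother's tissue to enlarge seeds, had 0.0713 and 0.0502 RPKM at EH25, against 1.45 and 1.03 RPKM at EH10. The difference was -2.04, with an SE of 0.82 and an adjusted p of 0.98. This SE also takes in the spread of the UC7 replicates. Another KLU-type gene, Glyma.05G019200.1, went the other way in the paper's averages for UC413, which were higher at EH25 than at EH10. By those averages it was more abundant than Glyma.19G240800.1 at both stages. The calcium pump gene Glyma.01G193600.1 (ACA2 type) had 3.56 and 9.11 RPKM at EH25, against 12.6 and 39.0 RPKM at EH10, with a spread inside each stage almost as large as the gap between them.

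NB-ARC genes, for receptors that detect pathogens inside the cell, were lower as a family but not evenly. Both EH25 libraries lay below both EH10 libraries in 85 of the genes tested (48.6%) and above both in 3 (1.71%), with a median of -0.30. That median was -0.53 in EH25 replicate 1 and -0.06 in EH25 replicate 2, as the plot of the replicates shows. At an unadjusted p under 0.05, 34 were lower (19.4%, against 1.63% of all genes), and the count became 2 without EH25 replicate 1, 71 without EH25 replicate 2 and 0 without EH10 replicate 2. It was 52 without UC7 EH25 replicate 2 and 22 without UC7 EH10 replicate 1. The gene Glyma.06G259800.4 of this family had 2.24 and 3.36 RPKM at EH25, against 5.22 and 10.7 RPKM at EH10. Heat shock proteins, the chaperones of stressed cells, had a median of -0.26 over 91 genes, with 13 above and 16 below. Their median was -0.42 in EH25 replicate 1 and -0.11 in EH25 replicate 2, and EH10 replicate 2 lay 0.38 above EH10 replicate 1. Without 1 library at a time the median ran between -0.44 (EH10 replicate 1 left out) and -0.07 (EH10 replicate 2 left out).

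**Figure D3:**
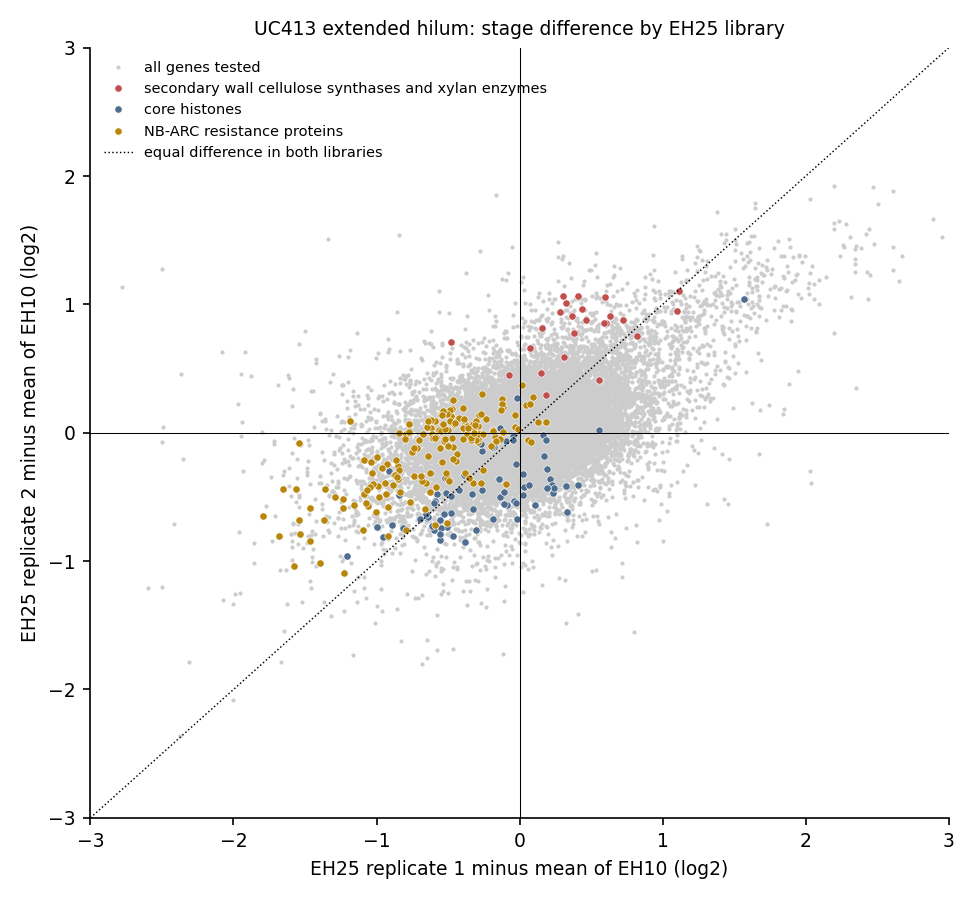
Difference of each EH25 library from the mean of the EH10 libraries (log2 of scaled RPKM plus 0.25), replicate 1 on the x axis and replicate 2 on the y axis, with 1 point per gene tested (grey), secondary wall genes in red, core histones in blue and NB-ARC genes in ochre. The axes end at 3 and leave out 8 genes; secondary wall genes lie above the diagonal (median 0.40 in replicate 1, 0.87 in replicate 2), and NB-ARC genes spread along the x axis (median -0.53 in replicate 1, -0.06 in replicate 2).

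Nuclear genes of photosynthesis were slightly higher at EH25, in a tissue that is green while young. Of 40 light-harvesting protein genes, 29 were above and 0 below, with a median of 0.23 that was 0.28 in EH25 replicate 1 and 0.26 in EH25 replicate 2. Of 82 genes for photosystem subunits, 38 were above and 1 below, with a median of 0.21 that was 0.13 without EH25 replicate 1. Ribosomal protein genes were slightly lower, with 235 of 615 below and 12 above and a median of -0.13. This rested on EH25 replicate 2, where the median was -0.28, since in EH25 replicate 1 it was -0.0005.

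The stage difference of UC413 was set beside that of UC7, which shares no library with it. The p-values that picked the UC413 genes nevertheless used a spread estimated from the libraries of both isolines. In UC7, limma likewise called 0 of 55100 models (0%), with 2943 models higher (5.34%) and 2251 lower (4.09%) at an unadjusted p under 0.05, or 1748 genes (5.85%) and 1320 genes (4.42%). By limma-voom the counts of models were 0 called, 2784 higher and 2236 lower. The count of 0 in UC7 was not stable. Without UC7 EH25 replicate 2, 1724 models were called higher and 766 lower, on RPKM as deposited 1266 were called higher and 30 lower, and with 12 extended hilum libraries in the fit 88 were called higher and 2 lower. Unadjusted, RPKM as deposited gave 9913 models higher and 315 lower, and without UC7 EH25 replicate 1 there were 1512 higher and 665 lower. The counts were 6532 and 5694 without UC7 EH25 replicate 2 and 1752 and 1016 without UC7 EH10 replicate 2. Ribosomal DNA models took 11.6% and 22.0% of the alignments at EH25 in UC7, against 47.4% and 26.1% at EH10, so the UC7 libraries differ from each other in a way that the UC413 libraries do not, and the part of this in the UC7 values was not tested. Of the 1211 genes higher in UC413 at an unadjusted p under 0.05, 1151 had a positive difference in UC7 (95%, against 72.9% of all genes with a positive difference in UC413). Of the 486 lower genes, 432 had a negative difference in UC7 (88.9%, against 73.7%). The shares over all genes include genes with differences near 0, so they are not a like-for-like baseline. List medians had the same sign in both isolines for the division and secondary wall lists. The median of secondary wall genes was 0.67 in UC413 and 1.27 in UC7, that of core histones -0.34 in UC413 and -0.62 in UC7, and that of mitotic kinases and spindle checkpoint genes -0.41 in UC413 and -0.88 in UC7. Heat shock proteins had medians of -0.26 in UC413 and 0.19 in UC7.

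The difference between the stage changes was tested in the same fit, as the change in UC413 minus the change in UC7. No model was called (0 of 55100, 0%), the lowest adjusted p was 1, and at an unadjusted p under 0.05 there were 287 models with a positive and 200 with a negative difference (0.521% and 0.363%). With limma-voom 0 were called, and the unadjusted counts were 295 and 209. The balance turned to 81 positive and 2099 negative on RPKM as deposited, 222 and 296 with equal sums outside ribosomal DNA, 199 and 287 with 12 extended hilum libraries, 427 and 737 with the replicate number as a block, and 646 and 720 without a filter. It was 1412 positive and 2902 negative without UC7 EH25 replicate 2, 628 and 735 without UC413 EH25 replicate 2 and 361 and 554 without UC7 EH10 replicate 1. It kept its side, at 386 and 312 without UC413 EH10 replicate 1 and 106 and 93 without UC413 EH10 replicate 2, and without UC413 EH25 replicate 1 there were 99 negative. Counted by gene there were 200 positive (0.67%) and 148 negative (0.496%). On RPKM as deposited 2 models were called with a negative difference. Without UC7 EH25 replicate 2, 7 models were called with a positive and 144 with a negative difference, and without UC7 EH25 replicate 1, 2 were called with a negative difference. The albumin I gene Glyma.13G194400.1 had the difference -3.75 in UC413 and 2.32 in UC7, and the 2 changes differed by -6.08 (unadjusted p = 9.6e-05 in limma, adjusted p = 1). The KLU-type gene Glyma.19G240800.1 had -2.04 in UC413 and 1.71 in UC7 (unadjusted p = 0.012 in limma, adjusted p = 1). The germin 3-type gene Glyma.17G049800.1 had -2.36 in UC413 and -0.41 in UC7 (unadjusted p = 0.00031 in limma, adjusted p = 1). The IPT5-type gene Glyma.18G297300.1 had 1.93 in UC413 and 0.57 in UC7, and the Kunitz gene Glyma.16G206100.1 had 1.61 in UC413 and 0.50 in UC7, each with an adjusted p of 1 for the difference.

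**Figure D4:**
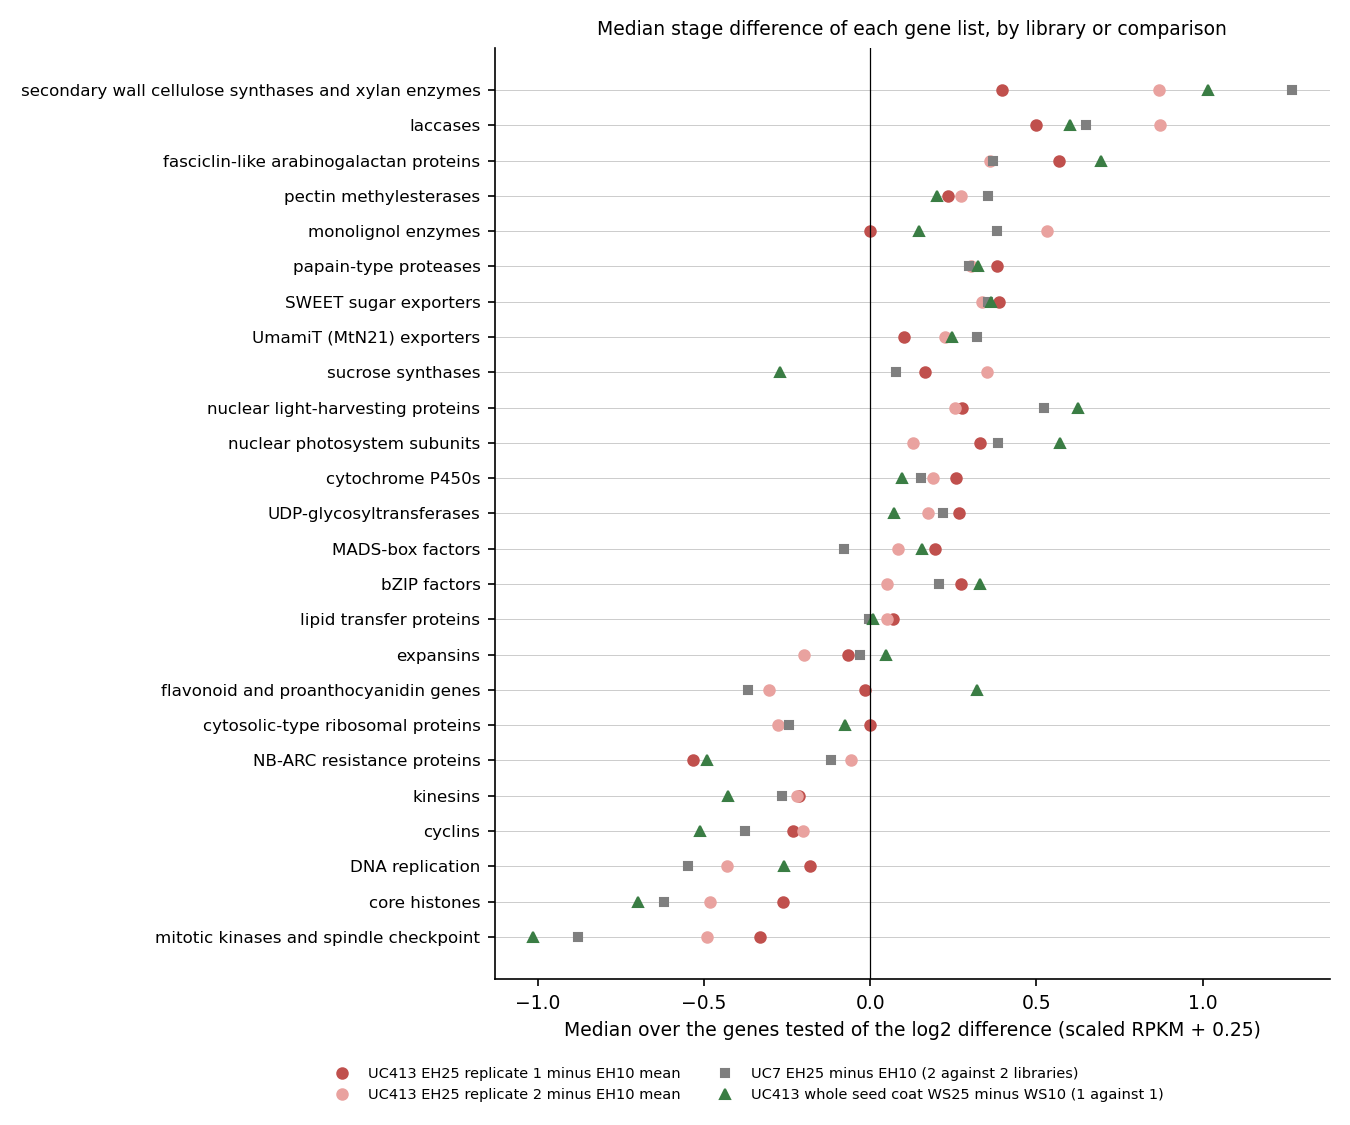
Median difference of each gene list (log2 of scaled RPKM plus 0.25) for UC413 EH25 replicates 1 and 2 against the EH10 mean (red and pink points), for UC413 whole seed coats WS25 against WS10 (green triangles, 1 library each) and for UC7 EH25 against EH10 (grey squares). Division lists lie left of 0 and secondary wall lists right of 0 in all 4, from -1.01 for mitotic kinases in whole seed coats to 1.27 for secondary walls in UC7. Some lists change side, among them sucrose synthases, flavonoid genes, MADS-box factors, expansins and lipid transfer proteins.

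Whole UC413 seed coats of the same seed weights were sequenced as 1 library for each of WS25 and WS10, which share no library with the extended hilum comparison and allow no test. Of the 1211 genes higher at EH25, 1107 were higher in WS25 than in WS10 (91.4%, against 78.1% of all genes with a positive difference in the extended hilum). Of the 486 lower genes, 467 were lower in WS25 (96.1%, against 73.7%). Here too the shares over all genes include genes with differences near 0. The median of WS25 minus WS10 was 1.02 for secondary wall genes, -0.70 for core histones and 0.57 for photosystem subunits. Flavonoid and proanthocyanidin genes had a median of 0.32 in whole seed coats and -0.19 in the extended hilum, and sucrose synthases -0.27 in whole seed coats and 0.21 in the extended hilum. The GDSL lipase gene Glyma.09G233900.1 had 139 RPKM in WS25 and 16.2 RPKM in WS10. The SAG12-type gene Glyma.06G275300.1 had 1011 RPKM in WS25 and 434 RPKM in WS10.

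Later stages came from libraries of mixed kits and are given as values only. At EH50 (seeds of 50 to 100 mg), replicate 1 was made with a non-stranded kit and replicate 2 with the stranded kit, and EH100 (seeds of 100 to 200 mg) had 1 non-stranded library. The SAG29-type gene Glyma.08G183500.1 stayed near its EH25 level, with 510 and 540 RPKM at EH50 and 534 RPKM at EH100. The FLA11-type gene Glyma.03G179900.1 went on to 45.1 and 39.3 RPKM at EH50 and 28.6 RPKM at EH100, and the ribonucleotide reductase gene Glyma.06G148500.1 was at 1.14 and 2.01 RPKM at EH50 and 0.670 RPKM at EH100. The IPT5-type gene Glyma.18G297300.1 differed between the EH50 libraries, with 16.7 and 38.9 RPKM, and had 8.02 RPKM at EH100. Kit and replicate cannot be told apart at EH50. The GA3ox1-type gene Glyma.13G361700.1 was at 0.0231 and 0.0390 RPKM at EH50, near the limit of detection. The albumin I gene Glyma.13G194400.1 had 3.10 and 1.58 RPKM at EH50 and 80.5 RPKM at EH100, above its level at EH10.

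**Figure D5:**
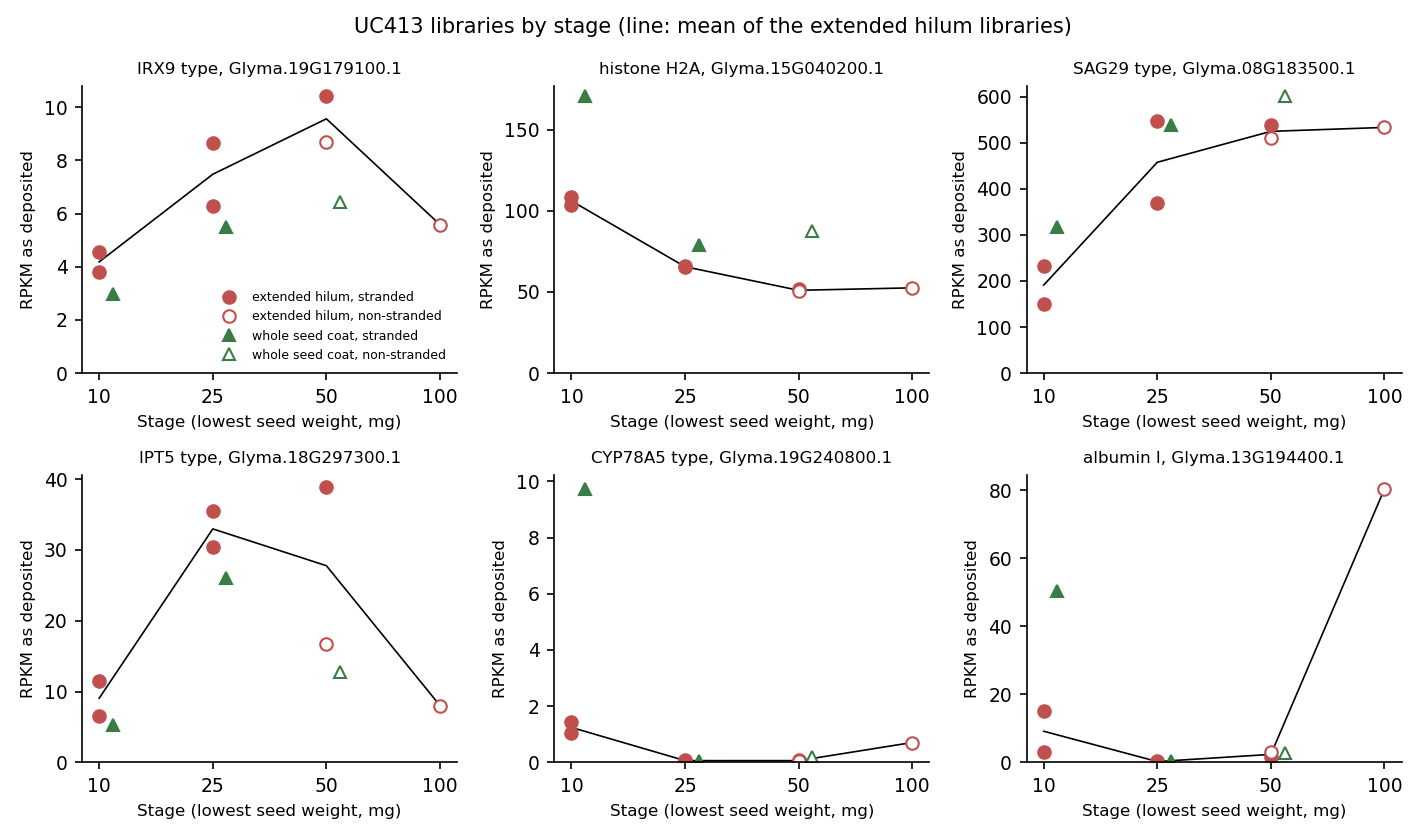
RPKM as deposited of 6 genes in UC413 libraries by the lowest seed weight of the stage (10, 25, 50 and 100 mg), with extended hilum libraries as red circles, whole seed coat libraries as green triangles, non-stranded libraries as open symbols and a line through the mean of the extended hilum libraries, kits mixed. The histone H2A gene is lower in each later extended hilum library than at EH10, the SAG29-type gene stays between 510 and 540 RPKM from EH50 on, and the albumin I gene is near 0 at EH25 and at 80.5 RPKM at EH100.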

How the data were processed

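RNA from seed coat tissue was sequenced by the authors on an Illumina HiSeq2000, and the reads were aligned with Bowtie (its first major version) to the cDNA models of the Williams 82 soybean genome, allowing a read 3 mismatches and 25 places at most, with reads of more places left out, so near-identical genes share reads. The authors deposited RPKM values for 88647 models in 20 libraries. Whether the counting used strand is not given in the sources used here, so overlapping and antisense genes may share reads. Multiplying RPKM by length and depth gave whole alignments for 100% of values within 0.01, which gives the depth of 91768975 to 128803969 alignments for a library.

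Libraries were brought to one scale by median-of-ratios size factors, and log2 was taken after adding 0.25 RPKM. Models with at least 1 RPKM in at least 2 of the 4 UC413 libraries were tested with limma (version 3.58.1, under R version 4.3.3, with tables read by data.table version 1.17.8), with a trend in the prior variance, on 8 stranded libraries in 4 groups without a block, and p-values were adjusted over all 55100 models by the Benjamini-Hochberg method. EH50 was kept out of the fit because its replicates differ in kit. For lists, each gene was taken as its tested splice form with the highest mean, and models of the ribosomal DNA region (138) were left out. The members of the comparison and the gene lists were chosen with earlier results of these data known.

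The genes named were to be called genes: the 12 in each direction with the largest fold, the 10 with the largest difference in RPKM, up to 3 for each list and direction, a pair of ACC oxidases and the markers. No model was called, so genes with an unadjusted p under 0.05 and no overlap took their place, together with the genes of lowest p. This change, and the genes picked from those candidates for the text, came after the values were seen. Alternatives were other scalings, pseudocounts and filters, other sets of libraries, limma-voom on recovered alignments, a replicate block and leaving out each library. The code was tested on simulated data. Gene functions are those of the deposited annotation and best Arabidopsis hits. Promoter motifs and sequences were not analysed here.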

Additional observations from a re-analysis of the deposited data

How the results depend on the processing

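All counts here are models with EH25 above or below EH10 in UC413 unless said otherwise. At an adjusted p under 0.05, 106 models were higher and 9 lower on RPKM as deposited, and 101 and 3 after quantile normalization, while 0 were called with the other scalings, pseudocounts, filters, library sets, limma-voom and each library left out. Genes called in the lists numbered 31 on RPKM as deposited and 20 after quantile normalization. An adjusted p under 0.10, chosen after seeing the data, gave 77 higher and 2 lower. At an unadjusted p under 0.05, against 1870 higher and 818 lower, there were 1204 higher on RPKM as deposited, 1261 lower with an equal sum outside ribosomal DNA, 1571 lower without a filter and 1591 lower with the 4 UC413 libraries alone. Suffix 1 models alone gave 1124 higher and 427 lower, and 1 model for each gene 1128 and 431. Leaving out each library in turn gave 1.28% to 4.18% of models higher, against 3.39%, and 0.306% to 2.77% lower, against 1.48%. With a replicate block 0 models were called, and 1591 were lower at an unadjusted p under 0.05. The sources used here do not say whether the replicate numbers pair the samples. Deviations of same-numbered libraries had a correlation of 0.235 in UC413 and -0.027 in UC7, which cannot settle this. For the change in UC413 minus that in UC7, 2 models were called negative on RPKM as deposited, and leaving out each library gave 0 to 7 positive and 0 to 144 negative; with the block, 427 were positive and 737 negative at an unadjusted p under 0.05, against 287 and 200. Of 2551 values for 109 named genes under 24 settings, 2 turned round, both ACC oxidases: Glyma.09G008400.1 ran between -1.23 and 0.38 and Glyma.15G112700.1 between -1.265 and 0.60 over the libraries left out, with the positive value without EH25 replicate 1. Of the named genes, 37 were called on RPKM as deposited, 22 after quantile normalization and 15 under both. The causes of these changes were not tested.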

Other observations

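Further lists that the comparison of UC413 EH25 with EH10 did not single out are given by their values, with 19.6% of all genes above and 17.6% below as the background. Polygalacturonases, which cut pectin, had both EH25 libraries below both EH10 libraries in 14 of 36 genes and above in 3 (median -0.18). Xyloglucan endotransglucosylases, which rejoin wall polymers, split into 10 of 37 above and 13 below. SAUR genes, small genes many of which respond to auxin, were above in 11 of 20 and below in 3 (median 0.31), and GH3 genes, for enzymes that conjugate auxin or jasmonate, had medians of 0.34 in UC413 and 1.33 in UC7. ZIP metal transporters were above in 9 of 19 and below in 1. Invertases had a median of 0.18 in UC413 and -0.54 in UC7, with 8 genes tested, and lipoxygenases a median of 0.07 in the extended hilum and -1.30 for WS25 minus WS10 in whole UC413 seed coats. Callose synthases, which lay down a wall glucan at plasmodesmata and new cell plates, were above in 0 of 20 and below in 3. Starch genes were near the background, with 8 of 32 synthesis genes above and 4 below and 12 of 37 breakdown genes above and 5 below. The differences between isolines and tissues for these lists were not tested.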
